A study of Chelonus formosanus with 6 samples.

Results

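Odorant receptors 46a-like and 35 of the parasitoid wasp Chelonus formosanus were more abundant in male than in female heads, against the direction of most of their family. They were chosen by that difference, as it stood in the counts of these same 6 libraries. They are 2 unigenes out of 139 whose description names an odorant or olfactory receptor and out of 41986 in the whole assembly. A unigene is a cluster of assembled transcripts that stands for a gene. The 2 are TRINITY_DN26562_c0_g6, whose best protein hit is an odorant receptor 46a, isoform A-like protein of the wasp Microplitis demolitor, and TRINITY_DN4472_c0_g1, whose best hit is odorant receptor 35 of Microplitis mediator.

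The libraries were poly(A) RNA of heads, labelled day 1 without saying of which stage, 3 from females and 3 from males, with no treatment named in the labels. The labels do not say whether antennae stayed on the heads, how many wasps made a library or whether libraries came from separate wasps, so the spread between libraries may be technical. Summed counts ran from 17937367 to 19517856 per library. In bulk heads, fewer cells of a type and less RNA per cell cannot be told apart.

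Insect odorant receptors are membrane proteins of olfactory neurons, in which a tuned receptor and the shared coreceptor Orco form an ion channel that odours open. The tuned receptor sets which odours a neuron answers to, while Orco is needed for the channel in nearly all of these neurons. In some insects, receptors enriched in male antennae detect female signals, as does a receptor of honey bee drones for the queen's pheromone. The name 46a comes from Drosophila, where isoform A of this receptor is used by neurons of the maxillary palp. No ligand is recorded in the deposited table for either wasp receptor.

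Both unigenes carried the annotation of the insect odorant receptor domain (7tm_6) in the deposited table, as did 100 of the 137 other receptor unigenes. Both were also placed in the same orthologous group, ENOG410YKTV. The 46a-like unigene was 1103 bases long with 1 assembled transcript, and odorant receptor 35 was 1466 bases long with 2. The median length of the 100 other receptors that passed the filter on low counts was 1264.5 bases. The 2 receptors passed that filter, at or above its cutoff of 0.534 CPM in each of the 6 libraries, so neither entered through the males alone. CPM is the count in each 1000000 counts of the library, with library totals scaled by edgeR.

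Odorant receptor 46a-like had expected counts of 22, 13.02 and 23 in female libraries 1 to 3 and of 93.57, 81 and 90 in male libraries 1 to 3. In CPM these were 1.21, 0.682 and 1.15 in females and 5.08, 4.56 and 4.81 in males. The sexes did not overlap, and female 2 was the lowest library. The means were 1.01 ± 0.287 CPM in females and 4.82 ± 0.264 CPM in males (SD, n = 3 per sex), a fitted difference of 4.74-fold (log2 female minus male -2.24). Without female 2 the log2 difference was -2.02. The count of 13.02 had a 95% Poisson interval of 6.92 to 22.2, and that of 93.57 an interval of 76.0 to 115, both for counting error only.

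Odorant receptor 35 had 26, 28 and 25 expected counts in females 1 to 3 and 80, 76 and 70 in males 1 to 3. These corresponded to 1.43, 1.47 and 1.24 CPM in females and 4.33, 4.27 and 3.74 CPM in males. Again the sexes did not overlap, and every male library held more than any female one. The means were 1.38 ± 0.119 and 4.11 ± 0.326 CPM (n = 3 per sex), a fitted difference of 2.97-fold (log2 female minus male -1.57). The authors' deposited table gave log2 values of -2.23 for 46a-like and -1.56 for odorant receptor 35. Because both were picked for this contrast, their differences are described here without a test. Over all 21196 unigenes tested, 1.11% were called higher in males at an adjusted p under 0.05 (edgeR's quasi-likelihood test), and nothing is read from the place of the 2 receptors among them.

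The spread between libraries of a sex was somewhat above counting error for 46a-like in females and below it in the other cases. For 46a-like the coefficient of variation of CPM was 28.4% in females, where counting alone gives 22.7%, and 5.47% in males, where it gives 10.6%. For odorant receptor 35 it was 8.65% in females against 19.5% from counting, and 7.93% in males against 11.5%. With 3 libraries a spread below that of counting is itself imprecise.

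**Figure D1:**
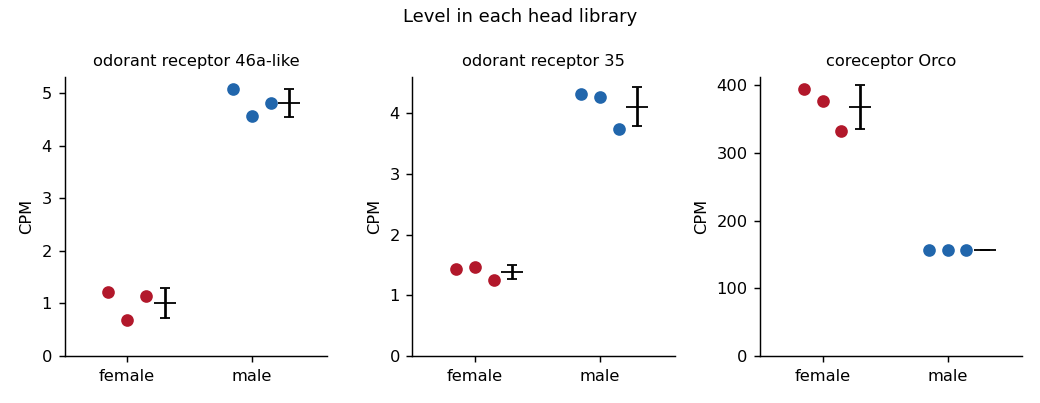
CPM of odorant receptor 46a-like, odorant receptor 35 and the coreceptor Orco (y axis, from 0) in each female and male library; points are libraries, and the bar beside them is the mean ± SD of 3. The 2 receptors stand near 1 CPM in females and between 3.74 and 5.08 CPM in males, while Orco lies at 332 to 394 CPM in females and near 157 CPM in males.

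Orco moved the other way in the same libraries. The coreceptor (TRINITY_DN25907_c2_g3) stood at 394, 377 and 332 CPM in females 1 to 3 and at 156.8, 156.6 and 157.2 CPM in males 1 to 3, with no overlap. It was 2.35-fold higher in females (log2 1.23, SE 0.0819, adjusted p = 1.06e-05 by edgeR's quasi-likelihood test).

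Set against Orco within each library, the 2 receptors differed between the sexes by more than in CPM. These ratios use TPM, the authors' length-corrected share of all transcripts. Odorant receptor 46a-like was at 0.640%, 0.369% and 0.704% of Orco's TPM in females 1 to 3 and at 6.67%, 5.92% and 6.06% in males 1 to 3. Odorant receptor 35 was at 0.552%, 0.577% and 0.565% of it in females and at 4.08%, 4.02% and 3.39% in males. Put as log2 differences of that ratio, female minus male, these were -3.50 for 46a-like and -2.76 for odorant receptor 35. They contain the same sex contrast for which the receptors were picked, together with Orco's own difference.

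The rest of the receptor family leaned to females. Of the 100 other receptors tested, Orco among them, the test called 37 for females and 3 for males, and 60 did not pass (edgeR, adjusted p under 0.05). With unigenes of the same description summed, an alternative that leaves 40 others to test, 17 were called for females and 0 for males by edgeR, where 1 was higher in males at an unadjusted p under 0.05. Over all unigenes tested, 1.69% were called higher in females and 1.11% in males, beside 37% and 3% of these receptors. The median log2 difference (female minus male) of the 100 was 0.60, with quartiles of 0.08 and 1.83, while over all unigenes it was 0.00. A positive difference was fitted for 78 of them and a negative one for 22. In 52 of the 100 every female library lay above every male one, against 8.77% of all unigenes, and in 7 every male library lay above, against 8.5%. In order from the most male-biased of the 102 receptors tested, 46a-like stood at place 1 and odorant receptor 35 at place 3. The 2 were picked by this same difference, so nothing is read from these places.

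**Figure D2:**
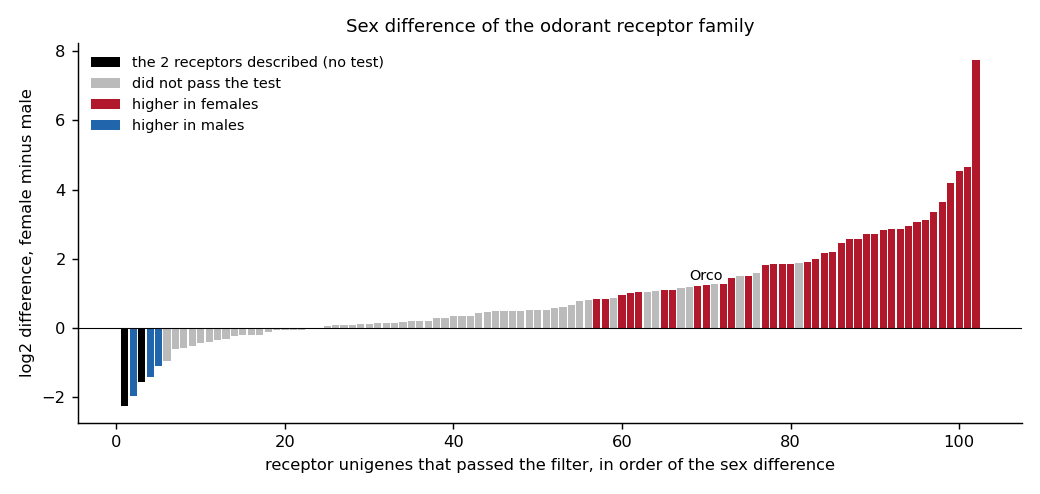
Fitted log2 difference, female minus male (y axis), of the 102 odorant receptor unigenes that passed the filter, in order of that difference (x axis); each bar is a unigene, coloured by the outcome of edgeR's test, with the 2 receptors described in black and untested. Bars run from -2.24 to 7.74, with 5 black or blue ones on the male side and 37 red ones on the female side. The 2 black bars were picked by this difference.

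The 3 other receptors higher in males reached at most 4.95 CPM in any library. In males their mean TPM was 3.35, 2.41 and 5.80, in the order below. In females it was 0.913, 0.957 and 3.96. The median of the 137 other receptors was 2.11 TPM in males and 3.90 TPM in females. These 3 were called higher in males in the same libraries, so nothing is read from their level against the median. An odorant receptor 4-like unigene (TRINITY_DN24132_c0_g2) had 0.604, 0.787 and 0.498 CPM in females and 2.6, 1.91 and 2.94 CPM in males. It was 3.92-fold higher in males (log2 -1.97, SE 0.307, adjusted p = 0.00527). An odorant receptor 2a-like unigene (TRINITY_DN26496_c0_g4) had 0.989, 1.10 and 1.34 CPM in females and 3.14, 3.37 and 2.83 CPM in males, 2.70-fold higher (adjusted p = 0.00825). An odorant receptor 22c-like unigene (TRINITY_DN25583_c0_g6) had 2.36, 2.10 and 1.99 CPM in females and 4.38, 4.95 and 4.49 CPM in males, 2.14-fold higher (adjusted p = 0.0114). The sexes did not overlap in any of the 3. The last call was lost without female 2 (adjusted p = 0.0674) and without male 2 (adjusted p = 0.0666). The receptor nearest to the threshold from outside, chosen after its values were seen, was the odorant receptor 4-like TRINITY_DN24724_c1_g2, with a log2 difference of -0.97 and an adjusted p of 0.0536.

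At the female end, the 5 smallest p-values belonged to unigenes from 5.96-fold to 215-fold higher in females. The odorant receptor 13a-like TRINITY_DN26448_c0_g5 had 36.1, 26.9 and 23.1 CPM in females and 0.162, 0.0562 and 0.16 CPM in males (adjusted p = 2.46e-07). The others were a 22c-like receptor (TRINITY_DN26448_c0_g4, 12.4-fold, adjusted p = 8.56e-07), another 13a-like one (TRINITY_DN26229_c1_g14, 18.1-fold, adjusted p = 1.07e-06), olfactory receptor 4 (TRINITY_DN26229_c1_g8, 5.96-fold, adjusted p = 5.36e-06) and a 67a-like receptor (TRINITY_DN25583_c0_g1, 25.2-fold, adjusted p = 5.36e-06). The 22c-like receptor of males and the 67a-like receptor of females came from the same Trinity cluster, DN25583.

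In level per length, the 2 receptors stood at the lower end of the family in females and nearer its upper part in males. Odorant receptor 46a-like had 1.54, 0.85 and 1.47 TPM in females 1 to 3, at places 123, 133 and 117 of the 139 receptor unigenes from the highest down. In males 1 to 3 it had 6.05, 5.44 and 5.53 TPM, at places 12, 17 and 15. Odorant receptor 35 had 1.33, 1.33 and 1.18 TPM in females, at places 129, 124 and 125, and 3.70, 3.69 and 3.09 TPM in males, at places 37, 33 and 43. The 137 other receptors had a median of 3.90 TPM in females (quartiles 2.33 and 5.61) and 2.11 TPM in males (1.34 and 3.63). The 2 were picked for being higher in males in these same libraries, and the median of the others was lower there. Nothing is therefore read from the change of their places between the sexes.

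In females the TPM of the 2 receptors overlapped, and in males every value of 46a-like lay above every value of odorant receptor 35. Many of the 139 are short fragments whose TPM rests on few counts. Ranked by CPM instead, without regard to length, the mean places in females were 88.3 for 46a-like and 77.7 for odorant receptor 35, and odorant receptor 35 stood at 22 in males. Among the 102 that passed the filter, the mean places by TPM in females were 95 for 46a-like and 96.7 for odorant receptor 35, and in males 12 and 31.

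**Figure D3:**
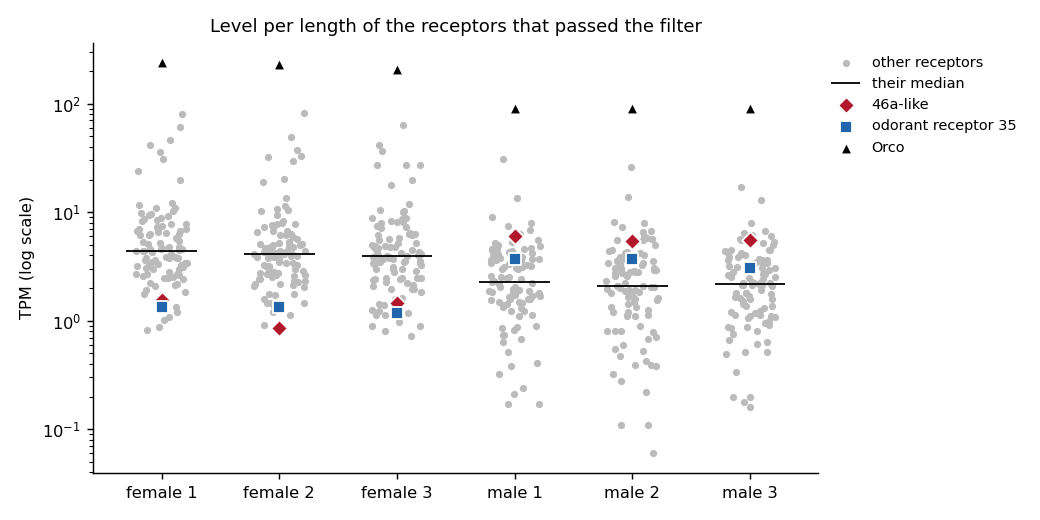
TPM on a log axis (y) in each library (x) of the receptor unigenes that passed the filter; grey points are other receptors (2 values of 0 are not drawn), the line is their median, and the marked points are 46a-like, odorant receptor 35 and Orco. Both marked receptors sit below the line in the 3 female libraries and above it in the 3 male libraries. They were picked for being higher in males in these same libraries.

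The nearest receptors in mean TPM over the 6 libraries overlapped in range with the 2, whose own range includes the difference between the sexes. Odorant receptor 46a-like (3.48 TPM, from 0.85 to 6.05) lay below odorant receptor 30a (3.69, from 2.53 to 4.77) and a 46a, isoform B-like fragment (TRINITY_DN9576_c0_g1, 3.59, from 0.92 to 7.92). Next below it were odorant receptor 43 (TRINITY_DN7145_c0_g1, 3.46 TPM) and the Or2-like TRINITY_DN26113_c0_g2 (3.44 TPM). Odorant receptor 35 (2.39 TPM, from 1.18 to 3.70) lay below a 13a-like fragment (TRINITY_DN26229_c1_g16, 2.43) and olfactory receptor 83 (2.41). It lay above olfactory receptor 20 (2.29, TRINITY_DN26229_c1_g9) and the Or2-like TRINITY_DN24527_c0_g2 (2.28). Of these 8 neighbours, 4 passed the filter. None of those 4 passed the test between the sexes by edgeR, with adjusted p from 0.0782 for olfactory receptor 20 to 0.92 for odorant receptor 30a. Olfactory receptor 20 was 2.21-fold higher in females with no overlap of CPM, and passed by DESeq2's Wald test (adjusted p = 0.0362).

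As parts of the tuned receptors' summed TPM, Orco left out, the pair together made up 0.265% to 0.354% in females and 2.33% to 2.42% in males. The sum itself was 819 ± 68.9 TPM in females and 386 ± 16.2 TPM in males (n = 3 per sex). The 36 tuned receptors called higher in females made up 52.9% to 57.3% of it in females and 19.3% to 21.0% in males. All 5 unigenes higher in males, the 2 described included, made up 0.967% to 1.05% in females and 5.21% to 5.48% in males. The pair and both of these sets were chosen by the sex difference in these same libraries. Nothing is therefore read from the change of their shares between the sexes.

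The Trinity cluster of 46a-like, DN26562, held 9 unigenes that share stretches of sequence, and 5 of them passed the filter. Besides 46a-like, 1 was higher in females and the other 3 did not pass. The one higher in females, g4, described as uncharacterized protein LOC103580176 with the odorant receptor domain, had 2.80, 3.36 and 2.69 CPM in females and 1.24, 0.562 and 0.961 CPM in males. It was 3.17-fold higher in females (log2 1.67, SE 0.301, adjusted p = 0.0126), though not when female 2 (adjusted p = 0.0656) or male 2 (0.0514) was left out. This unigene and 46a-like were matched to the same protein in the domain annotation, and no further unigene was. At 1136 bases it was close in length to 46a-like.

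The other 3 tested unigenes of the cluster were an odorant receptor, partial (g2, 4.81 ± 0.641 and 3.58 ± 0.4 CPM in females and males, adjusted p = 0.419), a second LOC103580176 unigene (g1, 6.19 ± 1.13 and 5.63 ± 0.394, adjusted p = 0.86) and a 46a, isoform A-like fragment of 426 bases (g7, 0.95 ± 0.454 and 0.832 ± 0.295, adjusted p = 0.936; edgeR, n = 3 per sex). Summed over its 9 unigenes, the cluster stood at 17.8, 18.5 and 15.3 CPM in females and at 18.1, 15.7 and 17.4 CPM in males. The sexes overlapped in this sum. Odorant receptor 46a-like made up 6.79%, 3.68% and 7.47% of it in females and 28.1%, 28.9% and 27.6% in males.

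**Figure D4:**
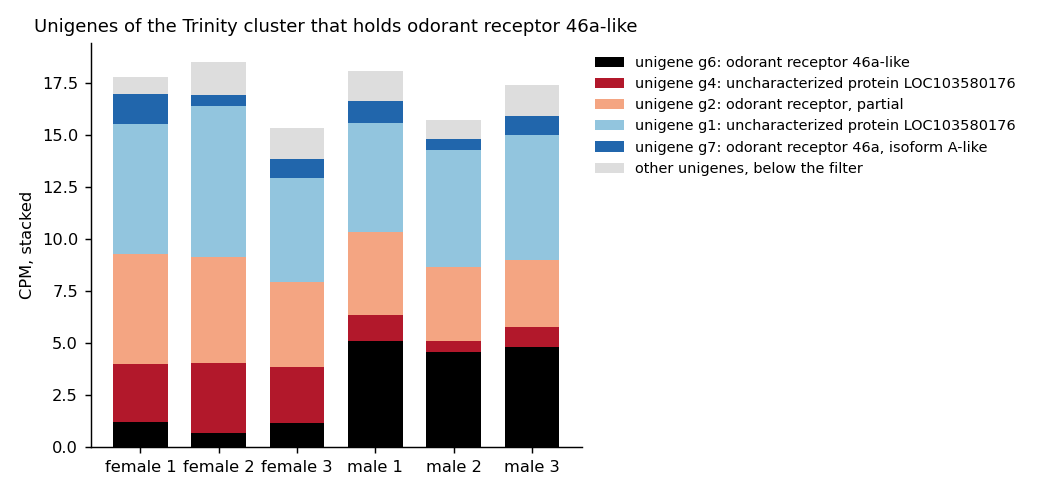
Stacked CPM (y axis, from 0) in each library (x axis) of the unigenes of Trinity cluster DN26562, with 46a-like in black at the base and g4 in red above it. The stacks are of like height in both sexes (15.3 to 18.5 CPM), the black segment is larger in the 3 males and the red one in the 3 females.

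Of 23 Trinity clusters with at least 2 tested receptors, DN25583 held calls in both directions. Cluster DN26562 held both only with the 46a-like unigene entered on the male side, for which it was picked. Receptors were taken here by description, by domain or by a gene ontology term for olfactory receptor activity. Odorant receptor 35 was the only unigene of its cluster.

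Expected counts that are not whole show that the authors' counter divided reads between unigenes. For 46a-like the count was not whole (by more than 0.001) in 2 of the 6 libraries, female 2 and male 1, with 13.02 and 93.57. For odorant receptor 35 it was whole in all 6. Such counts occurred in at least 1 library for 30 of the 100 other receptors tested and for 22.5% of all unigenes tested. Within DN26562, g1 and g2 had them in 5 libraries each and g4 in none. Whole counts do not show that close copies were assembled apart, and the assembly could have split or merged them.

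None of the 5 other tested unigenes with the same descriptions was called higher in males (edgeR). Of the 4 others described as odorant receptor 46a, isoform A-like, 1 was higher in females and 3 did not pass. The first (TRINITY_DN24476_c1_g2) had 10.4, 10.4 and 11.4 CPM in females and 6.49, 5.06 and 6.35 CPM in males, 1.80-fold higher in females (adjusted p = 0.0123). That call was lost without female 2 (adjusted p = 0.059), female 3 (0.0506) or male 2 (0.0823). The most abundant (TRINITY_DN25547_c2_g3) stood at 20.9 ± 1.77 and 19.2 ± 4.5 CPM (n = 3 per sex; adjusted p = 0.86 by edgeR). The third, TRINITY_DN25837_c0_g6, had 0.787 ± 0.149 and 1.19 ± 0.371 CPM (n = 3 per sex; adjusted p = 0.579 by edgeR).

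Of the 3 others described as odorant receptor 35, only TRINITY_DN26369_c1_g6 passed the filter. It stood at 7.30, 9.34 and 8.81 CPM in females and 8.76, 8.94 and 8.12 CPM in males (log2 -0.02, SE 0.148, adjusted p = 0.984). The remaining 2 were fragments of 280 and 371 bases with at most 14 counts in a sex. Summed over the 5 unigenes of the 46a, isoform A-like description, CPM was 34.3 ± 1.44 in females and 32.0 ± 5.12 in males. Summed over the 4 of odorant receptor 35 it was 10.2 ± 0.721 and 13.2 ± 0.808 (n = 3 per sex). The sexes overlapped in the first sum. They did not in the second, at 9.45 to 10.9 CPM in females and 12.3 to 13.9 CPM in males. Both sums contain the receptor picked for its sex difference. A best hit in another wasp does not show that unigenes with the same description are copies of each other.

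The orthologous group shared by the 2 receptors held 10 unigenes, all odorant receptors by description. Of the 8 others, 6 were tested, of which 2 were higher in females, 1 in males and 3 did not pass. The one higher in males was the 2a-like TRINITY_DN26496_c0_g4, and those higher in females were olfactory receptor 76 (TRINITY_DN25422_c1_g4, 10.9 ± 0.755 and 5.13 ± 0.328 CPM in females and males, n = 3 per sex, 2.12-fold, adjusted p = 0.00203 by edgeR) and the 46a-like TRINITY_DN24476_c1_g2 above. In the domain annotation, odorant receptor 35 was matched to the same protein as 2 others of the group, of which the 2a-like TRINITY_DN26295_c0_g4 was tested and did not pass (7.43 and 5.24 CPM in females and males, adjusted p = 0.236 by edgeR). The other, the 94a-like TRINITY_DN22602_c0_g3, was below the filter, with 13 counts in females and 27 in males.

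Unigenes with the pattern most like each receptor were sought among all described unigenes, by the root mean square difference of centred log2(CPM + 0.5) over the 6 libraries. For 46a-like the nearest was an odorant-binding protein (TRINITY_DN26499_c1_g12, difference 0.155, Pearson's r 0.99), of the secreted carriers of odorants, at 26.2 ± 1.15 CPM in females and 101 ± 10.8 in males. Next came pickpocket protein 11 (0.175), a sodium channel of the family that serves touch and taste in Drosophila, at 1.72 ± 0.211 and 8.41 ± 0.908 CPM. The others were genetic suppressor element 1-like (TRINITY_DN24939_c0_g5, 0.178), a reverse transcriptase (TRINITY_DN26556_c0_g6, 0.182) and pickpocket protein 19 (0.228).

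For odorant receptor 35 the nearest was general odorant-binding protein 56d (TRINITY_DN26698_c1_g2, difference 0.111), at 1482 ± 222 CPM in females and 3884 ± 531 in males. A kainate 5 ionotropic glutamate receptor (TRINITY_DN25840_c3_g5, 0.135), 15-hydroxyprostaglandin dehydrogenase-like (TRINITY_DN25747_c2_g2, 0.136), glutamate receptor 4-like (TRINITY_DN19940_c0_g1, 0.137) and again pickpocket protein 19 (0.16; 1.78 ± 0.192 and 6.18 ± 0.462 CPM) followed. All values of likeness rest on 6 libraries and mostly on the step between the sexes. The 0.5 CPM added narrows the fold difference of unigenes low in CPM more than that of abundant ones. Unigenes listed as alike can therefore differ from the receptor in fold. By Pearson's r, 0 of the 5 named for each receptor stayed among the nearest 5. The 2 receptors differed from each other by 0.344 (r 0.97). Counted among all tested unigenes, described or not, odorant receptor 35 was at place 40 of those nearest to 46a-like. By the same count, 46a-like was at place 130 of those nearest to odorant receptor 35.

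In the other chemosensory groups, 34 unigenes were tested, and the calls were 9 for females and 6 for males. Over all unigenes tested, 1.69% were called higher in females and 1.11% in males. The 18 odorant-binding proteins split into 4 for females, 5 for males and 9 that did not pass. The smallest p-values were those of OBP13 (6.21-fold higher in females, adjusted p = 5.53e-07) and a 56d protein (TRINITY_DN25379_c2_g1, 4.93-fold higher in males, adjusted p = 2.46e-07). Sensory neuron membrane protein 1, which in Drosophila takes part in pheromone detection, had 952, 765 and 666 CPM in females and 282, 232 and 197 CPM in males. It was 3.35-fold higher in females (adjusted p = 9.78e-05). The other member of that list did not pass. Both unigenes tested whose description reads ionotropic receptor were higher in females, led by ionotropic receptor 64a (2.57-fold, adjusted p = 0.00053). The kainate 5 ionotropic glutamate receptor above, which that wording leaves out, was 2.61-fold higher in males (adjusted p = 3.17e-06). Gustatory receptors gave 2 calls for females among 11 and 1 for males (TRINITY_DN26283_c0_g7, 2.77-fold, adjusted p = 0.000834). Gustatory receptor 6 led those of females (1.57-fold, adjusted p = 0.0137), a call lost without female 3, male 1 or male 2 (adjusted p 0.066, 0.0584 and 0.0513). The 1 chemosensory protein tested did not pass.

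Summed markers of cilia, muscle, fat body and glia did not overlap between the sexes, and those of photoreceptors and neurons did. Among single unigenes tested, 8.77% had every female library above every male one, and 8.5% the reverse. No such share was taken for sums of lists. The calls below stand beside 1.69% of all unigenes called higher in females and 1.11% in males. Intraflagellar transport genes, which build the cilia of sensory neurons, summed to 304 to 325 CPM in females and 180 to 188 in males (23 unigenes, 3 of 15 tested higher in females and 0 in males). Muscle markers summed to 19430 to 28083 CPM in females and 31071 to 35097 in males (6 of 36 tested higher in males, 0 in females). Fat body markers summed to 6233 to 6887 and 7876 to 7976 CPM (2 of 7 higher in females, 1 in males). Photoreceptor markers, a check of the head label, summed to 16094 to 17889 and 17156 to 18697 CPM (1 of 22 higher in females). Neuron markers summed to 544 to 557 and 473 to 547 CPM (1 of 9 higher in females), and glial markers to 4588 to 4699 and 4761 to 5099 CPM, with 0 of 9 called by edgeR or by DESeq2 and 2 higher in males at an unadjusted p under 0.05. No unigene of these lists was at 0 in all libraries. Their part in the difference of the 2 receptors was not tested.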

How the data were processed

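Per the labels' protocols, poly(A) RNA of heads gave paired NovaSeq reads, which Cutadapt cleaned and Trinity 2.4.0 assembled. The longest transcript of a cluster was taken as the unigene. Cluster there means the transcripts of a single unigene. A Trinity cluster in the Results instead holds all unigenes with the same DN number. The sources used here name no read counter or annotation tool. The deposited table holds expected counts, estimated by the authors for each unigene and not normalized, and the authors' TPM per library. The authors' deposited log2 fold change was set beside the values computed here, and the authors' deposited p-values and FDR were not used. Lengths are unigene lengths in bases, per the file headers.

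Expected counts were rounded and tested with edgeR 4.0.16 in R 4.3.3 (TMM, filterByExpr at a minimum of 10 counts, quasi-likelihood test, Benjamini-Hochberg adjustment over 21196 unigenes). Steps were tested on simulated counts. DESeq2 1.42.0, other scalings and filters, a replicate block and leaving out each library were alternatives. The receptors, gene lists and naming rules were chosen with earlier results of these data known. Lists are word patterns in the unigene descriptions. Named unigenes are the coreceptor, receptors called higher in males, the 5 with the smallest p in females, neighbours in TPM, members of the same cluster or description, the 5 most alike, and the smallest p in each other list. Olfactory receptor 76 was named after its values were seen, as part of the shared orthologous group. With 3 libraries per sex and counts of 13 to 94, precision is limited, and intervals cover counting error only.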

Additional observations from a re-analysis of the deposited data

How the results depend on the processing

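The 2 receptors stayed higher in males under every change of scaling, filter or tool tried, and when any library was left out (log2 female minus male -2.38 to -2.02 for 46a-like, -1.63 to -1.50 for odorant receptor 35). Summing unigenes of the same description, chosen after seeing the data, gave 0.11 and -0.36, and summing the cluster of 46a-like gave 0.0098. In these sums more abundant unigenes outweigh the receptor. Mean places among receptors moved with CPM (88.3 and 77.7 in females for 46a-like and odorant receptor 35, 22 in males for the latter) and with the filter (95, 12, 96.7 and 31). With the other tuned receptors as reference, the log2 difference of odorant receptor 35 was -2.54.

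Leaving out a library gave 357 to 688 calls over all unigenes, 210 to 382 higher in females and 144 to 306 in males, with the fewest without female 2 or male 2. DESeq2's Wald test called 359 in males. Other receptors called were 25 to 34 in females and 2 to 4 in males when a library was left out. With unigenes of the same description summed they were 17 and 0. By domain or the gene ontology term for olfactory receptor activity they were 36 and 5. The 2 added in males were glutamate receptors that carry that term and lack the odorant receptor domain. Of the 5 unigenes most like each receptor, 2 and 0 remained with log2(CPM + 1), and none by Pearson's r. Same-numbered libraries of the sexes did not deviate together (r -0.01, -0.06 and -0.02), so the numbers were not taken as pairs. The replicate block gave 576 calls, with 33 and 3 for the other receptors. Olfactory receptor 20 passed by DESeq2's Wald test (adjusted p = 0.0362), and the other named unigenes followed through the alternatives changed a call only where a library was left out. TRINITY_DN24724_c1_g2 and olfactory receptor 76 were not followed one by one, and the male-biased TRINITY_DN24132_c0_g2 was not kept by the stricter filter. The other receptors called higher in males were 4 by DESeq2's Wald test and 2 under that filter. Counts of 13 to 28 in females limit the precision of both folds.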
